A study of Mus musculus with 8 samples.

Results

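The replication-dependent histone genes code for the linker histone H1 and for the core histones H2A, H2B, H3 and H4, the proteins around which newly copied DNA is wrapped. They were chosen here by name, as the protein-coding mouse genes whose symbol begins with H1f, H2ac, H2bc, H3c or H4c followed by a number. This rule found 73 genes among the 56748 gene IDs counted, of which 11 were H1, 18 H2A, 19 H2B, 12 H3 and 13 H4 genes. The pattern also took in H1f0 and H1f10, linker histones that are made outside S phase, and the germ cell genes H1f7, H1f8 and H1f9, so it is wider than the name replication-dependent. H2ac22 and H2bc21 also lacked the stem-loop described below. In the genome build GRCm39, 54 of the genes lay on chromosome 13 between positions 21899933 and 24118834, 10 on chromosome 3 between 96127181 and 96177448, 4 on chromosome 11, 3 on chromosome 6 and 2 on chromosome 15.

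The data are RNA-seq counts from bone marrow-derived mast cells (BMMCs), which are mast cells grown in IL-3 from the marrow of C57BL/6 mice of 6 to 8 weeks of age. In the 4 Mettl3-RNP libraries the cells had been electroporated with Cas9 ribonucleoproteins (RNPs) against Mettl3, the catalytic subunit of the enzyme that methylates mRNA on adenosine (m6A). The 4 Pulsed libraries came from mock transfected BMMCs that received the pulse without an RNP. The cells were not stimulated. The Mettl3-RNP cells were an uncloned pool that, per the study, still held untargeted cells, after loss of Mettl3 protein had been checked by intracellular staining. The Pulsed cells lacked Cas9 as well as the guides, and the labels give the genotype only of the pool. The comparison asks which transcripts differ when Mettl3 is depleted, and here it is read for the histone genes.

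Most histone mRNAs are made in S phase, when the cell needs histones for the DNA that it copies. They are unusual among mRNAs because they end in a short stem-loop in place of a poly-A tail. The stem-loop is bound by the protein SLBP and cut downstream by a machinery that holds the U7 small RNA, and the finished mRNA is degraded when DNA synthesis stops. Replacement histones such as H1f0 instead come from ordinary polyadenylated mRNAs and are known from cells that divide slowly or have left the cycle.

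The stem-loop is the shared sequence that the choice by name did not use. A stem-loop of 16 bases, with 6 bases of stem that begin with GG, fully paired on both sides of a 4-base loop that starts with TT or TC, was searched on the gene's strand within 150 bases after the stop codon. It was found in 66 of the 73 histone genes (90.4%) and in 17 of 21557 other protein-coding genes (0.0789%), among them the histone gene H2ax. A match says only that these letters are present. The stem-loop began a median of 30 bases after the stop codon, with a range of 21 to 58, and 8 versions of the 16 bases occurred. The form in 42 genes is shown first for H1f2, the most counted stem-loop gene, and the other lines show the form that was next in number, in H3c6, and the form of H4c9, each 5′ to 3′ with 5 flanking bases on either side and the loop in capitals. They lie in GRCm39 at chr13:23923490-23923515 (H1f2, plus strand), chr13:23746072-23746097 (H3c6, minus strand) and chr13:22225131-22225156 (H4c9, minus strand), all in the stretch after the stop codon.
H1f2: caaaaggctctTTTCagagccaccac
H3c6: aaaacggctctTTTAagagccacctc
H4c9: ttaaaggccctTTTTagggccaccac
The H1f2 form was found in 42 genes, the H3c6 form in 9 and the H4c9 form in 2, counted over the 16 bases of stem and loop. The genes without a match were H1f0, H1f7, H1f8, H1f9, H1f10, H2ac22 and H2bc21.

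The libraries held 32643260 to 45324826 counts, of which the 73 genes of the name rule took 0.0223% to 0.0630%. Mettl3 fell by 1.30 on the log2 scale (SE 0.109, adjusted p = 0.00543, edgeR quasi-likelihood test), from 22.0 ± 7.29 CPM (counts per 1000000 counts, with TMM library sizes) in Pulsed to 8.89 ± 3.05 in Mettl3-RNP cells (SD, n = 4), and was lower in 4 of 4 pairs. The 12 mast cell markers summed to 46533 to 68866 CPM per library, and among them Cpa3, a mast cell protease, fell by 0.37 (SE 0.0699, adjusted p = 0.0328, 4 of 4 pairs). Of the 12, 7 had a fitted fold change above 0, and the median of the list was 0.10. The marker Il1rl1 had 0.24 (adjusted p = 0.117) and passed as higher with DESeq2 (adjusted p = 0.0288), which called 9.70% of all tested genes. The 7 neutrophil markers summed to at most 0.374 CPM. The 7 erythroid markers summed to 3.68, 5.12, 5.02 and 4.68 CPM in Pulsed 1 to 4 and to 3.61, 2.29, 2.51 and 2.57 CPM in Mettl3-RNP 1 to 4, lower in each pair. The 8 macrophage markers summed to 10.6, 7.78, 9.20 and 6.35 CPM in Pulsed 1 to 4 and to 4.25, 8.76, 10.03 and 7.58 CPM in Mettl3-RNP 1 to 4. The 5 basophil markers summed to 565, 683, 668 and 596 CPM in Pulsed and to 540, 857, 695 and 791 CPM in Mettl3-RNP cells, so both sums were lower in Mettl3-RNP cells in pair 1 and higher in pairs 2, 3 and 4. By gene, 4 of the 5 basophil markers (median log2 fold change -0.68) and 2 of the 3 tested macrophage markers (median -0.38) had a fitted fold change below 0. So did 1 of the 2 tested erythroid markers (median -0.38), whose median difference in pair 3 was 0.27. The macrophage marker Adgre1 fell by 1.13 (SE 0.235, adjusted p = 0.0435) and the basophil marker Il18rap by 0.79 (SE 0.144, adjusted p = 0.0324), each in 4 of 4 pairs. With a pair left out, the adjusted p was 0.0472 to 0.159 for Cpa3, which passed only without pair 1, 0.0906 to 0.11 for Adgre1 and 0.00176 to 0.106 for Il18rap, which passed only without pair 4. None of the 3 passed without the replicate block (adjusted p = 0.999, 0.843 and 0.725), where no gene of the 14942 tested passed. The fits with a pair left out called 0.174% to 2.57% of all genes, against 3.74% with all pairs. Cpa3 did not pass with at least 10 counts in every library (adjusted p = 0.0583), and Adgre1 did not with library size alone (adjusted p = 0.0507). The part of these cells in the histone results was not tested. Across 1546 olfactory and vomeronasal receptor genes, which mast cells are not known for, Mettl3-RNP 2 summed to 287 CPM and the other libraries to 48.3 to 167 CPM. In bulk RNA, fewer cells of a type and less RNA per cell cannot be told apart.

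Most histone genes had few reads in these poly-A selected libraries. Of the 73, 22 passed the filter on low counts (about 10 counts in 4 libraries), and 10 of them had a mean of at least 1 CPM. The other 51 did not exceed 39 counts or 0.911 CPM in any library, both reached by H3c4 in Mettl3-RNP 2. Among the 51, 8 genes had 0 counts in all 8 libraries, where 3 counts would correspond to 0.0701 to 0.100 CPM in a library. By family, 6 of 11 H1, 3 of 18 H2A, 6 of 19 H2B, 1 of 12 H3 and 6 of 13 H4 genes passed the filter.

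Expressed per kilobase of exon, so that genes of different length can be set side by side, the levels spanned a wide range. H1f0 averaged 124 CPM per kb over the 8 libraries, H1f2 68.4, H1f10 13.5, H2bc8 6.75, H4c9 3.31, H2bc21 2.88 and H2bc4 1.65, while the remaining tested genes lay between 0.135 and 0.958 CPM per kb. The H3 family was the least counted, with H3c6 at 0.371 CPM per kb as its highest member. Thus 2 linker histones outside the replication-dependent class, H1f0 and H1f10, made up 44.0% to 90.2% of the CPM of the 73 genes in a library, and H1f2 made up 48.2% to 87.8% of the CPM of the 66 stem-loop genes. The order of H1f0 and H1f2 was not fixed: the ratio of H1f0 to H1f2 per kb was 0.704 in Pulsed 2 and between 1.03 and 17.4 in the other 7 libraries.

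Stem-loop genes with a long annotated 3′ end passed the filter more often than the others. In 27 stem-loop genes the GENCODE annotation runs more than 100 bases past the stem-loop on the genome, introns included, and 16 of these passed the filter. In the other 39 it ends within 100 bases of the stem-loop or before its end, and 3 passed, namely H1f5, H2ac23 and H4c12. The median level was 0.260 CPM per kb in the 27 genes and 0.111 CPM per kb in the 39, and the median exon length was 1560 and 463 bases, so a gene with the longer annotation also offered more length for reads to be counted on. H1f2 is annotated for 835 bases past its stem-loop and H2bc4 for 8241 bases on the genome, across an intron. The plot of annotated end against level shows the H1f2, H2bc8 and H4c9 genes above all others on the long side of the 100-base line.

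**Figure D1:**
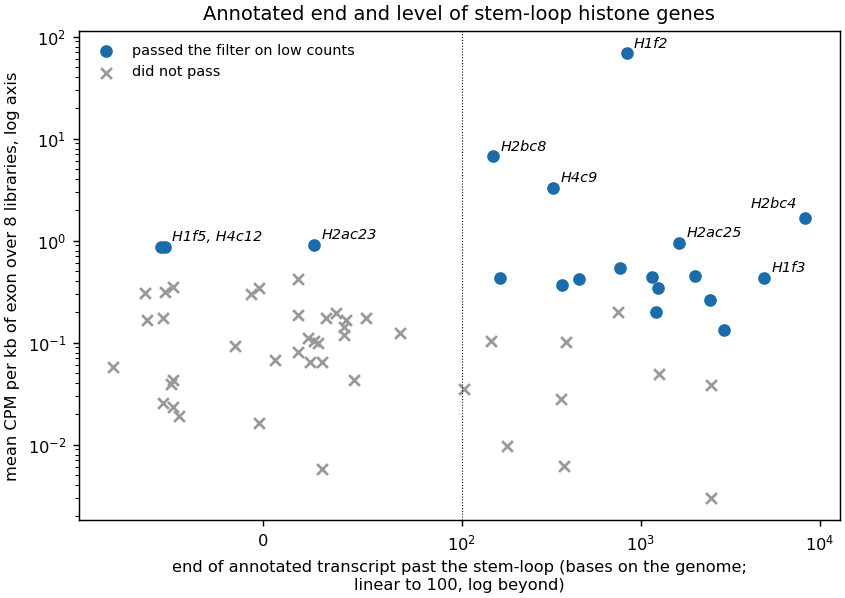
Mean level over 8 libraries (CPM per kb of exon, log axis) of each stem-loop histone gene against how far its annotated transcript runs past the stem-loop on the genome, introns included (bases, linear to 100 and log beyond; the dotted line marks 100). Circles passed the filter on low counts and crosses did not; 62 genes are drawn and 4 with no count in any library are not. Of the circles, 16 lie right of the line and 3 left of it, and H1f2 is highest at 68.4 CPM per kb.

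Between Mettl3-RNP and Pulsed cells, 2 histone genes fell, the linker histone gene H1f2 and the H2B gene H2bc21, and none rose at an adjusted p of 0.05 or less (edgeR quasi-likelihood test with the replicate number as a block, Benjamini-Hochberg over the 14942 genes tested). The 2 genes were 9.09% of the 22 tested, where 1.39% of all tested genes were lower and 2.35% were higher at this threshold (3.74% in either direction). At an unadjusted p under 0.05, 3 of the 22 tested histone genes were lower, as were 10.7% of all tested genes (1596 of 14942). H1f10 alone was higher at that level, and the share of all genes that were higher was not counted. DESeq2 also called H1f2 and H2bc21 lower, and it called H1f10 higher with an adjusted p of 0.0101, where it called 9.70% of all tested genes. Without the replicate block neither H1f2 nor H2bc21 passed (adjusted p = 0.999 for each), and neither did any other of the 14942 genes, Mettl3 included. Their fitted log2 fold changes there were -0.60 and -0.58. With each pair left out in turn, the number of lower histone genes was 0 without pair 1, 2 or 3 and 1, H1f2, without pair 4. These fits called 2.18%, 0.174%, 2.57% and 2.23% of all genes they tested without pairs 1 to 4, against 3.74% with all pairs.

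H1f2 codes for H1.2, a linker histone made mainly in S phase (gene ENSMUSG00000036181, GRCm39 chr13:23922791-23924350, plus strand, a single exon of 1560 bases). It stood at 129, 278, 98.1 and 8.93 CPM in Pulsed 1 to 4 and at 70.2, 207, 54.5 and 7.72 CPM in Mettl3-RNP 1 to 4. It was lower in the Mettl3-RNP library of every pair, while the ranges of the groups overlapped. Both libraries numbered 4 lay far below the rest. The fitted log2 fold change was -0.61 (SE 0.117, adjusted p = 0.0341), a 1.53-fold lower level. The log2 differences of the pairs were -0.87, -0.43, -0.85 and -0.21, so the pair with the lowest level also had the smallest difference. The adjusted p was 0.0705 without pair 1, 0.103 without pair 2, 0.0735 without pair 3 and 0.0126 without pair 4.

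H2bc21 codes for an H2B protein and lies apart from the large cluster, in the smaller histone cluster of chromosome 3 (gene ENSMUSG00000068854, GRCm39 chr3:96128435-96131054, plus strand, a single exon of 2620 bases). It had no stem-loop match, so its place among the replication-dependent genes rests on its name alone. Its annotated transcript ends with a poly-A signal (AATAAA or ATTAAA) in the last 50 bases. Such a signal was also present in 7 of the 19 tested stem-loop genes, among them H1f2, and in all 3 tested genes without a stem-loop. Its levels were 10.9, 12.1, 4.50 and 8.60 CPM in Pulsed 1 to 4 and 8.24, 8.15, 2.84 and 4.96 CPM in Mettl3-RNP 1 to 4. Each Mettl3-RNP library was below its Pulsed partner, with overlapping group ranges and the lowest values in the libraries numbered 3. The fitted log2 fold change was -0.60 (SE 0.119, adjusted p = 0.0366), a 1.52-fold lower level, with pair differences of -0.40, -0.57, -0.65 and -0.79. The adjusted p was above 0.05 whichever pair was left out, at 0.0594, 0.166, 0.0670 and 0.127 without pairs 1 to 4.

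H1f10 and H1f0, linker histones that are made outside S phase, had other values. H1f10, a replacement linker histone, stood at 5.65, 13.4, 29.7 and 7.86 CPM in Pulsed 1 to 4 and at 8.16, 18.9, 32.9 and 15.2 CPM in Mettl3-RNP 1 to 4. It was higher in the Mettl3-RNP library of each pair, with pair differences of 0.52, 0.49, 0.15 and 0.95, and the fitted log2 fold change of 0.52 (SE 0.134) had an adjusted p of 0.0716. Because H1f10 overlaps Gm54545 on its own strand and Gm5577 on the other, and the strand setting of the counting is not stated, its reads cannot be assigned with certainty. H1f0, known from differentiated cells, stood at 174, 258, 395 and 182 CPM in Pulsed and at 213, 322, 319 and 177 CPM in Mettl3-RNP cells. It was higher in 2 pairs and lower in 2, with a log2 fold change of 0.07 (SE 0.111, adjusted p = 0.782).

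**Figure D2:**
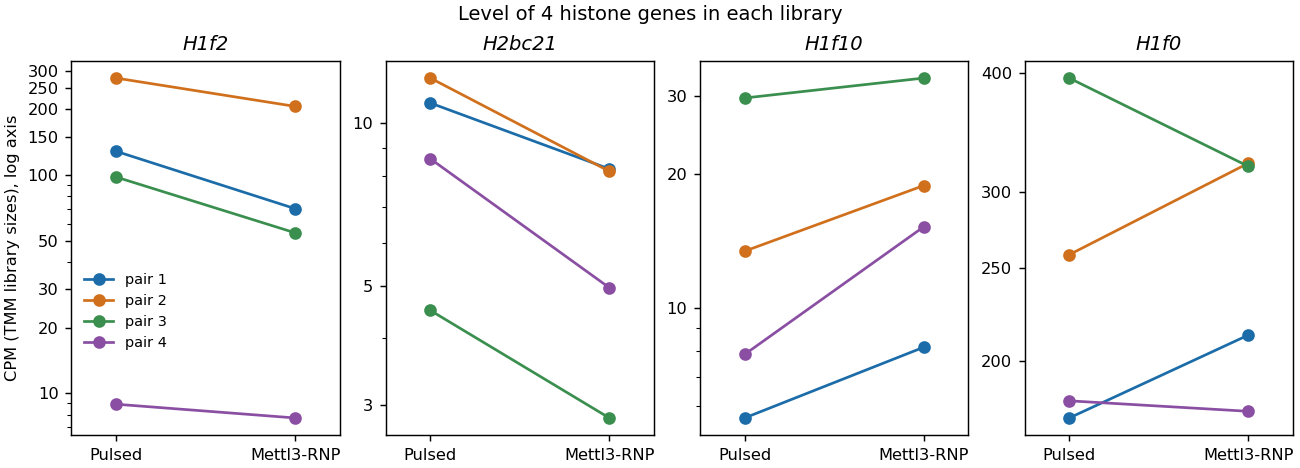
Level of H1f2, H2bc21, H1f10 and H1f0 in each library (CPM, log axis, 1 panel a gene), with lines joining the Pulsed and Mettl3-RNP libraries that carry the same replicate number. All 4 lines fall for H1f2 and H2bc21 and rise for H1f10, 2 of 4 rise for H1f0, and pair 4 of H1f2 lies at 7.72 to 8.93 CPM, far under the other pairs.

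The other 20 tested histone genes had log2 fold changes between -0.81 and 0.52, with adjusted p of 0.0716 to 0.953 and SE of 0.111 to 0.779. Over all 22, 15 (68.2%) had a fitted fold change below 0, as did 50.2% of all tested genes, and the median log2 fold change was -0.26 beside -0.001 for all tested genes. Within pairs the median difference was -0.45, -0.04, 0.14 and -0.12, so it was near 0 in pair 2 and above 0 in pair 3. The genes lower in 4 of 4 pairs were H1f2, H2bc21 and H2ac25 (13.6% of the 22, where 16.0% of all genes were lower in every pair), and H1f10 alone was higher in every pair (15.7% of all genes). The plot of fitted changes shows wide error bars for many of the genes with few counts.

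**Figure D3:**
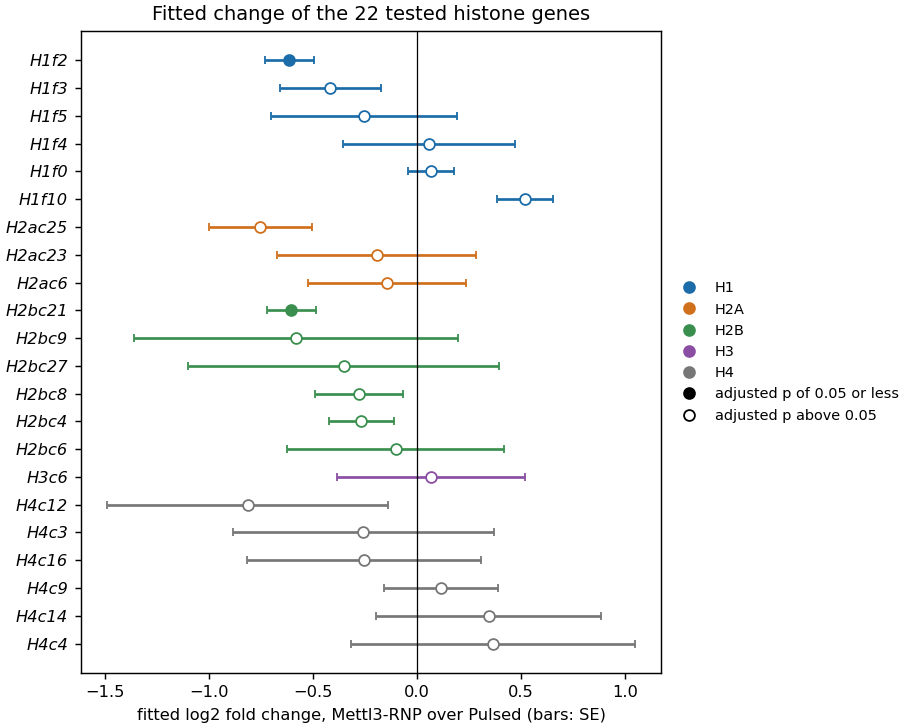
Fitted log2 fold change of Mettl3-RNP over Pulsed with its SE for the 22 histone genes that passed the filter on low counts, coloured and ordered by family. Filled symbols, H1f2 at -0.61 and H2bc21 at -0.60, had an adjusted p of 0.05 or less, and the open symbols run from H4c12 at -0.81 to H1f10 at 0.52.

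Among the other H1 genes, which code for the S phase linker histones H1.1 and H1.3 to H1.5, the values were low. H1f3 stood at 5.77, 7.78, 0.646 and 0.329 CPM in Pulsed 1 to 4 and at 2.85, 7.43, 0.702 and 0.20 CPM in Mettl3-RNP 1 to 4, with a log2 fold change of -0.42 (SE 0.243, adjusted p = 0.362). Its order of libraries, highest in number 2 and lowest in number 4, was that of H1f2 in both groups. H1f4 and H1f5 did not exceed 1.60 CPM in any library and had log2 fold changes of 0.06 (SE 0.413) and -0.26 (SE 0.446). H1f1 did not pass the filter.

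The H2A genes that passed the filter code for the core partner of H2B in the nucleosome. H2ac25, from the small cluster of chromosome 11, stood at 4.16, 3.97, 1.07 and 0.931 CPM in Pulsed and at 2.72, 2.45, 0.836 and 0.314 CPM in Mettl3-RNP cells. It was lower in each pair, but the log2 fold change of -0.75 (SE 0.247) had an adjusted p of 0.124. H2ac6 had -0.14 (SE 0.379, adjusted p = 0.866) and H2ac23 -0.19 (SE 0.477, adjusted p = 0.853). The summed H2A CPM differed by -0.51 ± 0.64 on the log2 scale (mean and SD of 4 pairs), which is less than its own spread between pairs.

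The H2B genes had the most reads of the core families. H2bc8 stood at 5.46, 10.97, 1.02 and 0.219 CPM in Pulsed and at 3.63, 11.2, 0.602 and 0.314 CPM in Mettl3-RNP cells, a 51.0-fold range over the libraries, and its log2 fold change was -0.28 (SE 0.212, adjusted p = 0.493). H2bc4 stood at 2.64, 12.8, 3.88 and 1.67 CPM in Pulsed and at 1.94, 13.5, 3.31 and 1.08 CPM in Mettl3-RNP cells, with a log2 fold change of -0.27 (SE 0.158, adjusted p = 0.370). For both genes the replicate number set the level more than the group did. The summed H2B CPM, of which H2bc21 is a part, was lower in each pair. The log2 differences were -0.43, -0.10, -0.49 and -0.61.

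H3 and H4 form the tetramer at the centre of the nucleosome, and few reads fell on most of their genes. H3c6, the H3 gene that passed the filter, stood at 0.137 to 0.506 CPM in the 8 libraries, with a log2 fold change of 0.07 (SE 0.451, adjusted p = 0.950), and H3c11 and H3c4 did not pass. H4c9 stood at 1.94, 5.04, 1.22 and 1.23 CPM in Pulsed and at 1.18, 4.72, 2.21 and 1.68 CPM in Mettl3-RNP cells, lower in 2 pairs and higher in 2, with a log2 fold change of 0.12 (SE 0.275, adjusted p = 0.848). The lowest fitted value, -0.81 for H4c12, rested on 82 counts in all (SE 0.675, adjusted p = 0.538), and H4c4 had 0.37 (SE 0.681, adjusted p = 0.805). The summed CPM differed by 0.09 ± 0.62 for H3 and by 0.06 ± 0.68 for H4 on the log2 scale, less than the spread between pairs for either family. Over all 62 H2A, H2B, H3 and H4 genes the sum was lower in each pair, at -0.53, -0.12, -0.12 and -0.49 (mean -0.31 ± 0.23).

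Summed over the 66 stem-loop genes, the level was 168, 333, 112 and 18.5 CPM in Pulsed 1 to 4 and 96.0, 260, 68.4 and 15.96 CPM in Mettl3-RNP 1 to 4. The paired log2 differences were -0.81, -0.36, -0.71 and -0.21, with a mean of -0.52 ± 0.28. This sum is mostly H1f2: the other 65 stem-loop genes differed by -0.62, -0.04, 0.04 and -0.22, a mean of -0.21 ± 0.29. H1f0 and H1f10 together differed by 0.09 ± 0.28, and all 73 histone genes by -0.13 ± 0.16. Sums over members carry no test.

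The level of the stem-loop genes differed more between replicates than between groups. H1f2 had a 36.1-fold range over the 8 libraries and a 31.2-fold range within the Pulsed group alone. Of the 19 tested stem-loop genes, 11 were highest in Pulsed 1 and 8 in Pulsed 2, and 12 were lowest in Pulsed 4 and 6 in Pulsed 3. In the Mettl3-RNP group, 8 were highest in library 1 and 10 in library 2, and 13 were lowest in library 4. H1f0 ranged only 2.26-fold within the Pulsed group and was highest in Pulsed 3.

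Genes of S phase did not follow this order. The 26 S phase genes, such as the replication clamp Pcna, the helicase subunit Mcm6 and the nucleotide reductase subunit Rrm1, summed to 807, 1087, 1267 and 1840 CPM in Pulsed 1 to 4 and to 702, 1150, 1519 and 1583 CPM in Mettl3-RNP 1 to 4. Pulsed 4 and Mettl3-RNP 4 thus had the highest S phase sums of their groups and the lowest H1f2, and libraries 1 had the lowest S phase sums. Between the groups, 0 of the 26 genes passed the threshold in either direction, and their median log2 fold change was -0.02, with pair medians of -0.26, 0.04, 0.33 and -0.23. Of the 18 genes of G2 and mitosis none passed either. Of these, 3 had a fitted fold change below 0, and their median was 0.13, with pair medians of 0.02, 0.07, 0.61 and -0.16. Mki67, a marker of cycling cells, was higher in each pair, with a log2 fold change of 0.54 (SE 0.126, adjusted p = 0.0577). It passed with DESeq2 (adjusted p = 0.000383), limma-voom (0.0486), at least 10 counts in every library (0.0339), every gene of at least 1 count (0.000370) and removeBatchEffect with limma-trend (0.00562). In that order these settings called 9.70%, 4.30%, 7.67%, 2.95% and 30.5% of all genes. Mki67 did not pass with DESeq2 size factors (0.0546), with library size alone (0.0536) or without the replicate block. The plot of sums by library shows the opposite ends of the S phase and stem-loop orders at replicate number 4.

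**Figure D4:**
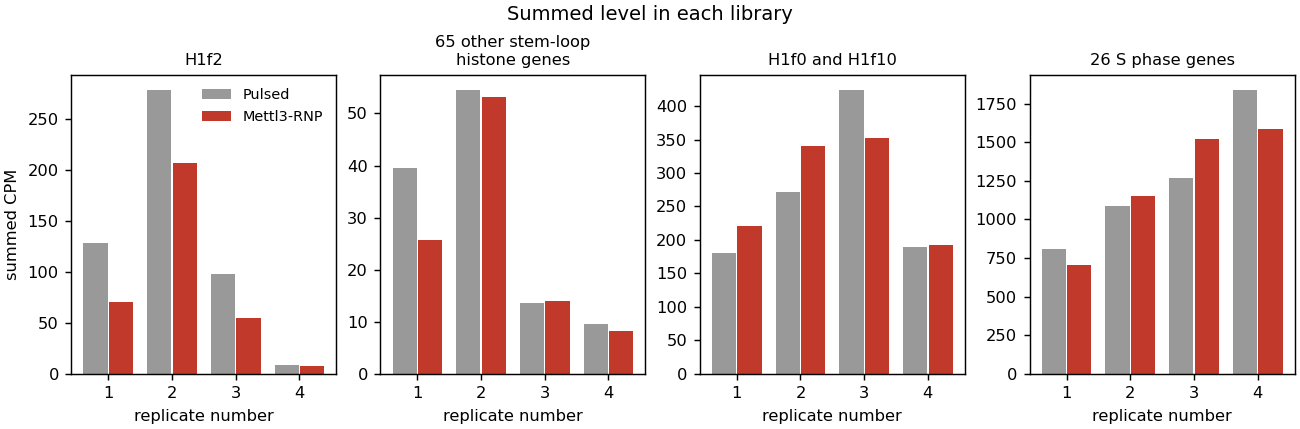
Summed level (CPM, linear axes from 0) of H1f2, of the other 65 stem-loop histone genes, of H1f0 and H1f10, and of 26 S phase genes in each library, by replicate number; grey bars are Pulsed and red bars Mettl3-RNP, 1 library a bar. H1f2 is lowest and the S phase sum highest at number 4, and in each pair the red H1f2 bar is below the grey one.

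The 22 factors that make and degrade stem-loop histone mRNAs were all tested, and 2 rose and 1 fell. In the same test 2.35% of all tested genes were higher and 1.39% were lower (3.74% in either direction). Whether the factors held more calls than other genes was not tested. Lsm10 and Lsm11 code for the Sm-like proteins that are particular to the U7 particle. Lsm10 stood at 19.1, 16.0, 5.40 and 19.5 CPM in Pulsed 1 to 4 and at 29.8, 33.3, 20.7 and 36.0 CPM in Mettl3-RNP 1 to 4, so every Mettl3-RNP library was above every Pulsed library. Its log2 fold change was 1.11 (SE 0.189, adjusted p = 0.0272), and the adjusted p was 0.11 without pair 2, where 0.174% of all genes passed.

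Lsm11 stood at 5.74, 7.23, 5.49 and 7.94 CPM in Pulsed 1 to 4 and at 7.86, 11.1, 8.43 and 11.6 CPM in Mettl3-RNP 1 to 4, higher in each pair with a slight overlap of the groups. Its log2 fold change was 0.56 (SE 0.106, adjusted p = 0.0340). Nelfe, a subunit of the negative elongation factor, stood at 33, 46.6, 50.6 and 49.97 CPM in Pulsed and at 27.0, 31.5, 34.1 and 39.8 CPM in Mettl3-RNP cells and fell by 0.44 on the log2 scale (SE 0.0806, adjusted p = 0.0324). Neither Lsm11 nor Nelfe passed when any pair was left out, with adjusted p of 0.0684 to 0.178 for Lsm11 and 0.0559 to 0.147 for Nelfe. None of the 3 passed without the replicate block (adjusted p = 0.999 for each), where no tested gene did.

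Slbp, which codes for the stem-loop binding protein itself, had a log2 fold change of -0.06 (SE 0.0711, adjusted p = 0.661), at 42.5 to 79.6 CPM in the Pulsed and 44.4 to 69.1 CPM in the Mettl3-RNP libraries. Npat, the coactivator of histone gene transcription, had -0.01 (SE 0.0739, adjusted p = 0.947), and Zfp473, a zinc finger protein of the processing complex, had -0.16 (SE 0.316, adjusted p = 0.819). Casp8ap2, which codes for the scaffold protein FLASH, was higher in each pair with a log2 fold change of 0.27 (SE 0.0741, adjusted p = 0.0853), and it passed with DESeq2 (adjusted p = 0.0425). The median over the 22 factors was -0.04, with 15 of them below 0.

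Histones and chaperones outside the name rule gave no call in the edgeR test. The 9 tested replacement and other histone genes lay at a median of -0.06 on the log2 scale, with 0 higher and 0 lower, and the 20 histone chaperone genes also had a median of -0.06 with 0 and 0. H3f3b, which codes for H3.3, had -0.06 (SE 0.106, adjusted p = 0.791), H2az1 had 0.03 (SE 0.113, adjusted p = 0.901) and the macrohistone Macroh2a1 had -0.20 (SE 0.0813, adjusted p = 0.193). The chaperone Nap1l1, which carries H2A and H2B, had -0.24 (SE 0.0953, adjusted p = 0.195), Atrx -0.15 (SE 0.0991, adjusted p = 0.445) and Ubn1 0.05 (SE 0.100, adjusted p = 0.806). H2ax, chosen after its values were seen because it carries the stem-loop, stood at 24.2, 42.3, 24.9 and 34.9 CPM in Pulsed and at 21.1, 33.4, 19.8 and 16.2 CPM in Mettl3-RNP cells. It was lower in each pair, with a log2 fold change of -0.49 (SE 0.147, adjusted p = 0.102).

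RNAs that are made without a poly-A tail were also read, because the libraries were poly-A selected. Their counts also depend on how much of each RNA the cells hold, so they do not measure carry-over alone. Of 13 such gene IDs, 3 passed the filter, and all 13 together summed to 4.22 to 22.5 CPM in a library. Most of it was Rn7sk, the 7SK small nuclear RNA, at 3.26 to 15.7 CPM in Pulsed and 4.65 to 20.3 CPM in Mettl3-RNP libraries, with a log2 fold change of -0.22 (SE 0.359, adjusted p = 0.773). It was highest in the libraries numbered 3, where no tested stem-loop gene was highest. Whether the histone reads came from polyadenylated transcripts or from carry-over was not tested.

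GGACT is a common sequence context of m6A, so its positions were read in the 2 genes that fell. They are shown 5′ to 3′ with 8 bases on either side and the 5 letters in capitals, searched on the transcript strand alone. In H1f2 all 5 occurrences lie past the stem-loop, in the stretch that a transcript cut at the stem-loop lacks, from chr13:23923559 to chr13:23924023 on the plus strand.
H1f2 site a: gttgcaagGGACTcgatcccg
H1f2 site b: ttcgtattGGACTgcaaggtg
H1f2 site c: ccggcccaGGACTctagttct
H1f2 site d: gttaagttGGACTcgggactg
H1f2 site e: tggactcgGGACTgagacgat
H2bc21 site a: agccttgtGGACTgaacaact
H2bc21 site b: tttactagGGACTggccgtaa
Sites d and e of H1f2 lie so close that each overlaps the flank of the other. The 2 sites of H2bc21 lie after the stop codon, between chr3:96130363 and chr3:96130499 on the plus strand. H1f2 thus has 3.21 GGACT per kb of its annotated transcript, a density reached by 1.19% of 12056 tested protein-coding genes, whose median was 1.04. H2bc21 has 0.763 per kb, below that median, and H1f0, which was not called, has 1.95. The median was 0 per kb over the 73 histone genes and 0.400 over the 22 tested, and H1f10 has none. Methylation of these letters was not measured in these libraries, and a match is not a methylated site.

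Many histone genes are near copies of each other, which limits which of them a 50-base read can be assigned to. The median histone gene had 56.2% of the 50-base windows of its exons unique in the genome, and the median tested gene 89.1%. In 30 genes less than 50% of the windows were unique, and 3 of these were tested. H1f2 had 91.5% unique windows, H2bc21 99.2%, H1f0 and H1f10 100%, H2bc8 50.3% and H4c9 71.1%. The 5 genes without any unique window held counts all the same, with 132 over the 8 libraries in H2ac23, 49 in H2ac24, 27 in H2bc24, 10 in H2ac19 and 2 in H2bc23, so their counts cannot be assigned to a copy. Of the genes named here, H2bc4 and H2ac6 overlap each other on opposite strands, as do H4c4 and H2bc6, and H1f4 overlaps H2bc6 on the same strand. H2ac25 overlaps Trim17 on its strand, and H1f0 overlaps Gm49544 on the other. H1f2 and H2bc21 overlapped no other counted gene.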

How the data were processed

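The study sequenced poly-A selected RNA of 8 BMMC libraries as read pairs of 50 bases. The authors aligned reads with HISAT2 2.2.1 to GRCm39 (Ensembl release 107) and counted them per gene with featureCounts 2.0.1, and the deposited values are these whole-number counts without normalization. FastQC 0.11.9 is also named. Strand and multimapping settings are not given in the sources used here. The members and gene lists were chosen with earlier results of these data known.

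IDs were named from GENCODE mouse release 39 (56017 of 56748, 98.7%). Genes kept by filterByExpr (14942) were tested with edgeR 4.0.16 in R 4.3.3, using TMM library sizes, the quasi-likelihood test and the replicate number as a block, with Benjamini-Hochberg adjustment over all of them. Calls needed an adjusted p of at most 0.05. The SE was derived from the test statistic. The script was tested on simulated data. CPM were scaled to TMM library sizes, or to total counts for the receptor genes, and log2 differences used a prior count of 2. Without molecular identifiers, reads may repeat a molecule, so floors cover counting error only. Within a group, libraries differed beyond sampling noise (lowest chi-square per degree of freedom 56.8).

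Per the series text the 8 samples came from 4 mice, and the reading of each replicate number as a mouse is an inference. Over 11985 genes averaging 1 CPM or more, libraries that share a number deviated together from their groups (correlations of 0.825, 0.489, 0.879 and 0.765 for pairs 1 to 4, and at most 0.183 for libraries of different numbers). With the less counted genes included, pair 2 had 0.0738, below the highest value of 0.249 for libraries of different numbers, and the other pairs had 0.534 to 0.735.

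Genes named were Mettl3, called histone genes, the 3 highest per kb in each family, H1f0 and H1f10, the tested histone genes with the highest and lowest fold change, called members of the other lists or up to 3 of the most counted, and the factors of stem-loop processing. H1f1, H1f3, H1f4, H1f5 and H2ax were added after their values were seen. Alternatives were DESeq2 1.42.0, limma 3.58.1, other scalings and filters, no block, and each pair left out. Sequences came from the GRCm39 genome.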

Additional observations from a re-analysis of the deposited data

Results flagged for a closer look

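For 41 named genes and 11 sums over histone genes, each in both groups (104 groups of 4 libraries), the highest or lowest library was set apart from the others in 4 cases, where chance gives about 1 in 20 groups (5.2). The gap to the nearest library was measured against the group's range by Dixon's ratio. The histone gene H3c4, which did not pass the filter on low counts, stood at 0.911 CPM in Mettl3-RNP 2, above the other 3 Mettl3-RNP libraries, and this is also the library with the highest sum over receptor genes. Among the Pulsed libraries, number 3 stood apart for Mettl3 at 11.2 CPM, below the other 3, for the histone chaperone gene Ubn1 at 251 CPM and for the histone gene coactivator Npat at 103 CPM, both above the other 3.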

How the results depend on the processing

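With the replicate block removed, 0 of all 14942 genes were called, so 0 histone genes were lower. Mettl3 then had a log2 fold change of -1.31 with an adjusted p of 0.744, and the common coefficient of variation was 0.407 in place of 0.159. With each pair left out the number of lower histone genes was 0 to 1, and these fits called 0.174% to 2.57% of all genes they tested. The number of higher histone genes was 1, H1f10, with DESeq2, with every gene of at least 1 count, and with removeBatchEffect followed by limma-trend, which also called H2ac25 lower (3 lower in all), Casp8ap2 (adjusted p = 0.0030) and Cenpf (adjusted p = 0.0379) higher, and Nap1l1 (adjusted p = 0.0356) and Macroh2a1 (adjusted p = 0.0230) lower. These settings called 9.70%, 2.95% and 30.5% of all genes they tested, against 3.74% in the reported test. Scaling, limma-voom and a minimum of 10 counts in every library moved neither count. The median log2 fold change of the tested histone genes was -0.33 to -0.14 with a pair left out and -0.26 to -0.17 otherwise, and the summed CPM difference stayed between -0.17 and -0.06.

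Directions that turned belonged to genes not called. Npat had 0.0052 with every gene of at least 1 count and 0.0215 with library size alone, and H4c4 had -0.0538 with limma-voom and -0.10 without the block. With a pair left out, the log2 fold change ran from -0.0440 to 0.187 for H1f0, -0.0387 to 0.142 for Ubn1, -0.0718 to 0.142 for H2az1, -0.114 to 0.118 for Rrm1, -0.0862 to 0.0282 for Npat, -0.568 to 0.196 for Rn7sk, -0.122 to 0.335 for H4c9, -0.247 to 0.898 for H4c4, -0.130 to 0.0617 for H3f3b, -0.0491 to 0.105 for Top2a, -0.363 to 0.123 for H2ac23 and -0.326 to 0.102 for Zfp473. The cause was not tested. The 51 histone genes that did not pass the filter were not tested, and why their counts are low was not tested.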
